A study of Homo sapiens with 18 samples.

Results

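Leukocyte integrins and PECAM1 are cell surface adhesion molecules, and 10 of their genes were examined here in a leukaemia cell line treated with MDM2 inhibitors. The genes were ITGAM, ITGAX, ITGAL, ITGB2, ITGA4, ITGA5, ITGA6, ITGB1, ITGB7 and PECAM1, taken by gene symbol from the array's annotation, with the brightest probe to be used where a symbol had several. Each of the 10 had 1 probe, out of 17687 distinct gene symbols and 21448 probes on the array. All 10 were kept and tested, since no filter on low signal was applied.

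The cells were OCI-AML3, a human acute myeloid leukaemia line that the labels call wildtype. The first group received 500 nM HDM201 for 24 h, the second 2 µM RG7112 for 24 h and the third the solvent DMSO for 24 h, with 6 arrays in each group and 18 in all. HDM201 and RG7112 are small molecules that stop MDM2 from binding p53, and p53 then accumulates and drives its target genes. All groups came from the same line in the same RPMI medium with fetal calf serum, so the results describe 1 line, 1 dose per compound and 1 time. The labels call the arrays biological replicates but give no word on whether each came from its own culture, and the p-values below rest on array-to-array spread that may in part be technical.

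Integrins are pairs of an alpha and a beta subunit that span the membrane. The beta2 subunit, encoded by ITGB2, pairs with alphaL (ITGAL) to form LFA-1, with alphaM (ITGAM) to form Mac-1, also called CD11b/CD18, and with alphaX (ITGAX) to form CD11c/CD18. LFA-1 binds ICAM proteins and holds leukocytes to other cells, whereas Mac-1 is the integrin of monocytes and granulocytes and also binds complement fragments and fibrinogen. The beta1 subunit (ITGB1) pairs with alpha4, alpha5 and alpha6 (ITGA4, ITGA5 and ITGA6), which bind VCAM1 and fibronectin, fibronectin, and laminin, and the beta7 subunit (ITGB7) pairs with alpha4 to bind MADCAM1 in the gut. PECAM1, or CD31, is an immunoglobulin family protein of leukocytes, platelets and endothelium that binds itself and CD38 and carries inhibitory motifs for the phosphatases SHP-1 and SHP-2.

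The promoter of ITGAM is shown because this gene had the largest change among the 10 genes in both comparisons with DMSO. The sequence is the RefSeq one of GRCh38.p14 at chr16:31259725-31260024, plus strand, and runs from 250 bases before the start of the gene to 50 bases after it. Capitals mark the core letters of PU.1 sites (GAGGAA on either strand) and of RUNX sites (TGTGGT on either strand), and PU.1 and RUNX1 are transcription factors of the myeloid lineage.
ITGAM promoter: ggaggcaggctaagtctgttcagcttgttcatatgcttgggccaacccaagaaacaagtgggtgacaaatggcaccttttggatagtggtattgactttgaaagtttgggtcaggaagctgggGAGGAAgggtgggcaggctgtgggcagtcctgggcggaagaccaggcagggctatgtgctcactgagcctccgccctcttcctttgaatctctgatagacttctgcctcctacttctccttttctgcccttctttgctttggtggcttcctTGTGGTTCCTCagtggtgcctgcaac

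The window held 2 PU.1 cores, of which 1 lay at positions -127 to -122, with the gene's first base as position 0, and the other, on the minus strand, at positions 29 to 34. The single RUNX match lay at positions 24 to 29 and shared 1 base with the second PU.1 core, so that both appear as one run of capitals. The window also held 2 Sp1 letters GGGCGG, and neither an AP-1 match (TGANTCA) nor a match to the p53 decamer. Of 35116 promoters of this length, 27.9% held a PU.1 core, 13.1% a RUNX match, 45.0% an Sp1 match, 7.71% an AP-1 match and 6.63% a p53 decamer, all counted on both strands. A match of letters is a description and not a measured binding site. Of the other members, ITGA4, ITGA5, ITGA6, ITGB1 and ITGB7 had promoters in the table, and that of ITGB7 held 2 PU.1 cores and no RUNX match.

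The signals were log2 values on a common scale, on which a difference of 1 is a 2-fold change. The array medians lay between 6.44 and 6.57 and the lowest signals between 2.66 and 2.85. The treatment was checked on 2 p53 targets. MDM2 averaged 12.46 ± 0.17 with HDM201, 12.46 ± 0.22 with RG7112 and 9.88 ± 0.50 with DMSO, and CDKN1A averaged 12.33 ± 0.44, 12.20 ± 0.49 and 8.23 ± 0.92 in the same order of groups (SD, n = 6 each). For both genes every treated array lay above every DMSO array. Replicates 1 to 3 stood apart from replicates 4 to 6, with CDKN1A at 9.06 and 7.41 in the DMSO arrays of the 2 sets. RG7112 replicate 3 stood apart as well, with an interquartile range of 3.45 against 3.70 to 3.87 in the other RG7112 arrays and a mean correlation with its own group of 0.972 against 0.986 to 0.988. The labels do not say what separates these arrays, and the differences of the 10 genes, and of the genes named by size from the lists around them, were also computed within each set of 3 replicates and without RG7112 replicate 3.

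With HDM201, 3 of the 10 genes rose against DMSO, 1 fell and 6 did not pass the test, where the test was limma with a Benjamini-Hochberg adjusted p under 0.05 over all 21448 probes. With RG7112 the counts were again 3, 1 and 6. Over the whole array 18.8% of probes changed with HDM201 (9.16% rose and 9.64% fell) and 17.5% with RG7112 (7.9% rose and 9.61% fell). After each array's median was subtracted, 1268 probes rose and 2551 fell with RG7112, instead of 1695 and 2062. The genes that passed were ITGAM, ITGAL and ITGB2, which rose, and PECAM1, which fell, in both comparisons. The counts of members were the same without RG7112 replicate 3. The 2 comparisons share the DMSO arrays, so that they are not independent of each other. The median change over the 10 genes was 0.03 with HDM201 and 0.09 with RG7112 on the log2 scale, beside 0.02 and 0.03 over all probes. Of the 4 beta2 integrin genes among the 10, 3 rose with each compound, with a median change of 0.91 with HDM201 and 0.73 with RG7112. ITGAD, a partner of beta2 outside the 10, differed by 0.13 with HDM201 and by -0.02 with RG7112 and did not pass. Of the 5 genes of the beta1 and beta7 integrins among the 10, 0 passed with either compound. Of these, 3 had an unadjusted p under 0.05 with HDM201 and 0 with RG7112, as had 29.1% and 30.5% of all probes. ITGAE, a partner of beta7 outside the 10, fell with both compounds, as given below with the other subunits.

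**Figure D1:**
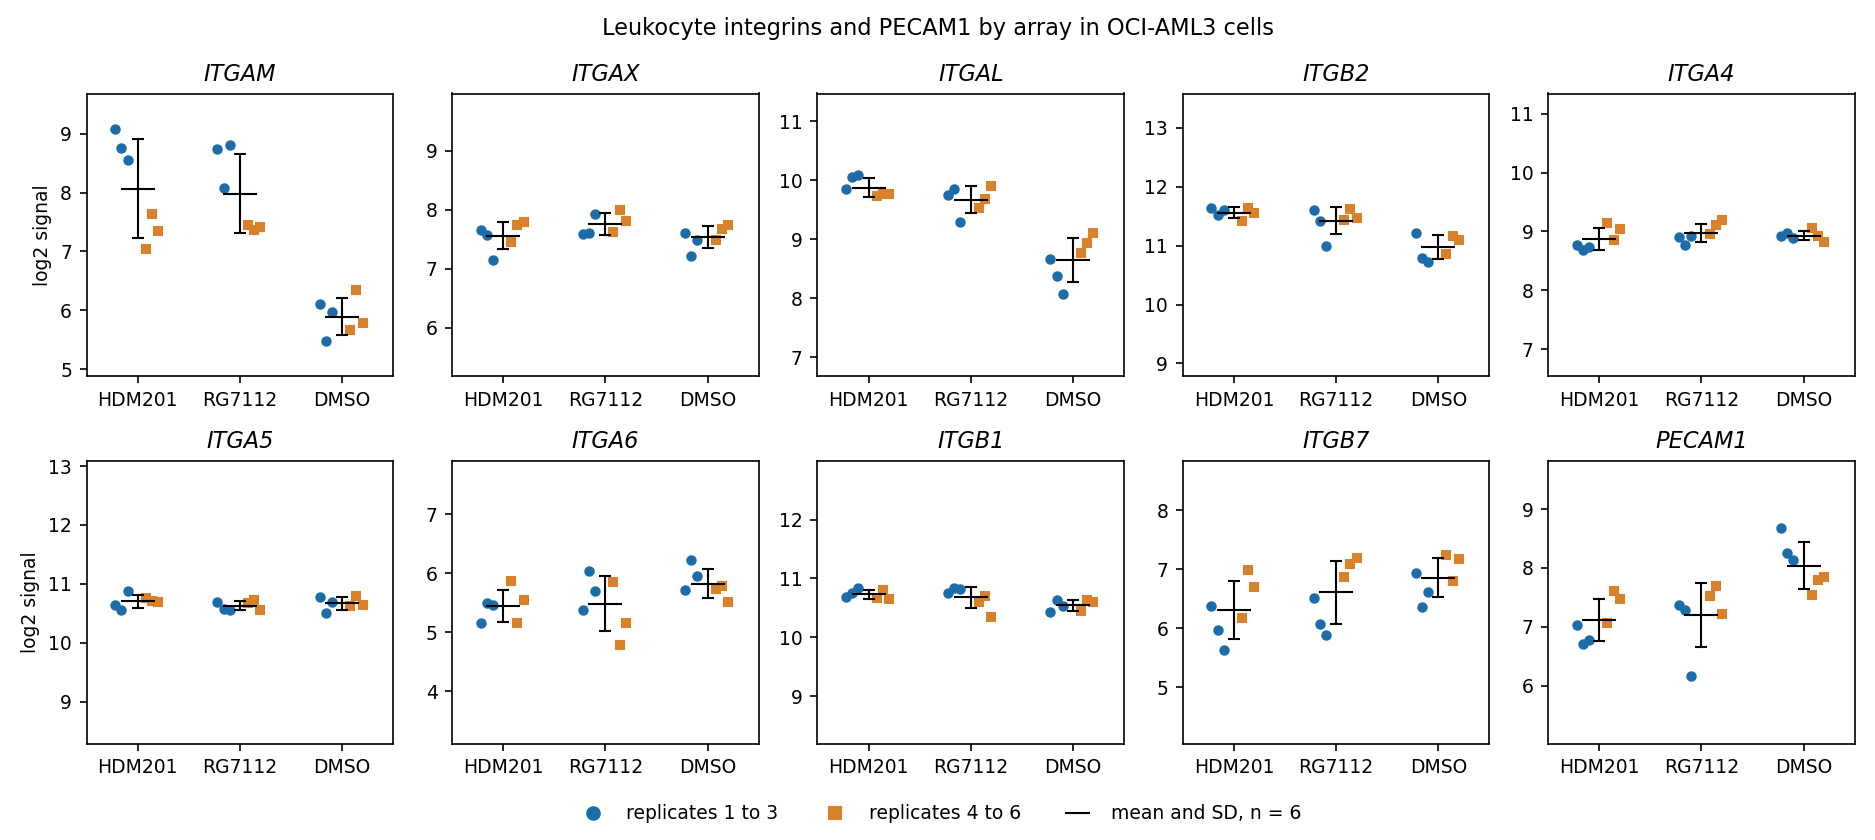
Log2 signal of the 10 genes in each of the 18 arrays, in 1 panel per gene, with HDM201 left, RG7112 in the middle and DMSO right. Circles are replicates 1 to 3, squares replicates 4 to 6, and black bars the group mean and SD (n = 6). Every panel spans the same range of log2 units around its own centre. ITGAM and ITGAL lie higher in all treated arrays than in any DMSO array, and PECAM1 lies lower in most of them.

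ITGAM, the alpha subunit of Mac-1, rose most among the 10 genes. Its log2 signal was 9.08, 8.76, 8.54, 7.04, 7.64 and 7.34 in HDM201 replicates 1 to 6 and 8.75, 8.08, 8.81, 7.45, 7.37 and 7.42 in RG7112 replicates 1 to 6, against 6.11, 5.48, 5.98, 5.66, 6.34 and 5.78 in DMSO replicates 1 to 6. Every treated array lay above every DMSO array, and with both compounds replicates 1 to 3 lay above replicates 4 to 6. The means were 8.07 ± 0.84 with HDM201, 7.98 ± 0.67 with RG7112 and 5.89 ± 0.31 with DMSO (SD, n = 6 each). The difference from DMSO was 2.18 ± 0.32 (SE) with HDM201, a 4.52-fold higher signal with a 95% interval of 2.83 to 7.21 and a limma adjusted p of 4.03e-05. It was 2.09 ± 0.32 (SE) with RG7112, a 4.25-fold higher signal with an interval of 2.66 to 6.78 and a limma adjusted p of 9.29e-05. Without RG7112 replicate 3 the difference of ITGAM with RG7112 was 1.92 (limma adjusted p 0.000276). In bulk RNA, more cells with a transcript and more of it per cell cannot be told apart, nor can fewer cells and less RNA per cell.

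The rise of ITGAM was larger in replicates 1 to 3 than in replicates 4 to 6, though the difference did not pass. Within replicates 1 to 3 ITGAM rose 7.67-fold with HDM201 and 6.46-fold with RG7112, and within replicates 4 to 6 it rose 2.66-fold and 2.79-fold, with limma adjusted p-values of 1.41e-05, 4.79e-05, 0.000241 and 0.000239. The DMSO arrays of the 2 sets averaged 5.86 and 5.93, so the gap lay in the treated arrays, which averaged 8.79 and 7.34 with HDM201 and 8.55 and 7.41 with RG7112. Tested directly, the change in replicates 1 to 3 exceeded that in replicates 4 to 6 by 1.53 ± 0.31 (SE) with HDM201 and by 1.21 ± 0.31 with RG7112, with limma adjusted p-values of 0.065 and 0.41. With HDM201 the adjusted p for ITGAM was 0.0404 with a trended and robust prior and 0.0426 after each array's median was subtracted. Over all probes this test called 0.149% with HDM201 and 0.0373% with RG7112.

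ITGAM lies on chromosome 16 beside ITGAX and ITGAD, genes of 2 further alpha subunits that pair with beta2, in the gene order of RefSeq's GRCh38.p14. ITGAX, the next protein-coding gene, had a log2 signal of 7.15 to 7.80 with a median of 7.61 in HDM201 arrays and of 7.59 to 8.0 with a median of 7.72 in RG7112 arrays, against 7.21 to 7.74 with a median of 7.54 in DMSO arrays. The groups overlapped. Its difference from DMSO was 0.03 with HDM201 (95% interval -0.21 to 0.27, limma adjusted p 0.906) and 0.23 with RG7112 (-0.01 to 0.46, limma adjusted p 0.186). ITGAD, which follows ITGAX, differed from DMSO by 0.13 with HDM201 and by -0.02 with RG7112 and did not pass (limma adjusted p 0.416 and 0.899). The 3 protein-coding genes before ITGAM (PYCARD, TRIM72 and PYDC1) and COX6A2 and ZNF843 after ITGAD did not pass either, with differences of 0.04 to 0.35 with HDM201 and 0.05 to 0.13 with RG7112.

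ITGAL, the alpha subunit of LFA-1, lies on chromosome 16 too. Its log2 signal was 9.85, 10.05, 10.09, 9.73, 9.77 and 9.77 in HDM201 replicates 1 to 6 and 9.75, 9.85, 9.29, 9.54, 9.68 and 9.91 in RG7112 replicates 1 to 6, against 8.67, 8.37, 8.06, 8.76, 8.93 and 9.10 in DMSO replicates 1 to 6. The treated arrays did not overlap the DMSO arrays. The means were 9.88 ± 0.16 with HDM201, 9.67 ± 0.23 with RG7112 and 8.65 ± 0.38 with DMSO (SD, n = 6 each). ITGAL rose by 1.23 ± 0.14 (SE) with HDM201, which is 2.34-fold (95% interval 1.90 to 2.88, limma adjusted p 2.42e-06). It rose by 1.02 ± 0.14 with RG7112, which is 2.03-fold (1.65 to 2.5, limma adjusted p 3.57e-05), and by 1.10 without RG7112 replicate 3. Within replicates 1 to 3 the rise was 1.63 with HDM201 and 1.26 with RG7112, and within replicates 4 to 6 it was 0.82 and 0.78, all past the threshold. Here the DMSO arrays differed between the sets, at 8.37 in replicates 1 to 3 and 8.93 in replicates 4 to 6, a difference of -0.57 with a limma adjusted p of 0.24. The difference in the change between sets was 0.81 with HDM201 and 0.49 with RG7112 and did not pass (limma adjusted p 0.329 and 0.807).

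ITGB2, the shared beta2 subunit on chromosome 21, had high signals in every group. They were 11.65, 11.52, 11.60, 11.42, 11.64 and 11.56 in HDM201 replicates 1 to 6 and 11.61, 11.41, 10.996, 11.44, 11.62 and 11.47 in RG7112 replicates 1 to 6, against 11.22, 10.79, 10.72, 10.86, 11.16 and 11.10 in DMSO replicates 1 to 6. All HDM201 arrays lay above the DMSO arrays, and of the RG7112 arrays 5 of 6 did, the exception being replicate 3. The means were 11.56 ± 0.09, 11.42 ± 0.23 and 10.98 ± 0.21 for HDM201, RG7112 and DMSO (SD, n = 6 each). ITGB2 rose by 0.59 ± 0.11 (SE) with HDM201, which is 1.5-fold with an interval of 1.29 to 1.75 (limma adjusted p 0.000345). It rose by 0.45 ± 0.11 with RG7112, which is 1.36-fold with an interval of 1.17 to 1.59 (limma adjusted p 0.00509). Without RG7112 replicate 3 the rise with RG7112 was 0.53 (limma adjusted p 0.000280). Within replicates 1 to 3, which hold that array, ITGB2 differed by 0.43 with RG7112 and did not pass (limma adjusted p 0.178), and within replicates 4 to 6 it rose by 0.47 (0.019). With HDM201 it rose by 0.68 and 0.50 within the 2 sets.

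The arrays of HDM201 did not overlap those of DMSO for 4 of the 10 genes, all higher with HDM201 and namely ITGAM, ITGAL, ITGB2 and ITGB1. Of all probes 6.63% were higher in this way with HDM201. With RG7112 the arrays of 2 genes, ITGAM and ITGAL, were all higher than the DMSO arrays, beside 4.29% of all probes.

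**Figure D2:**
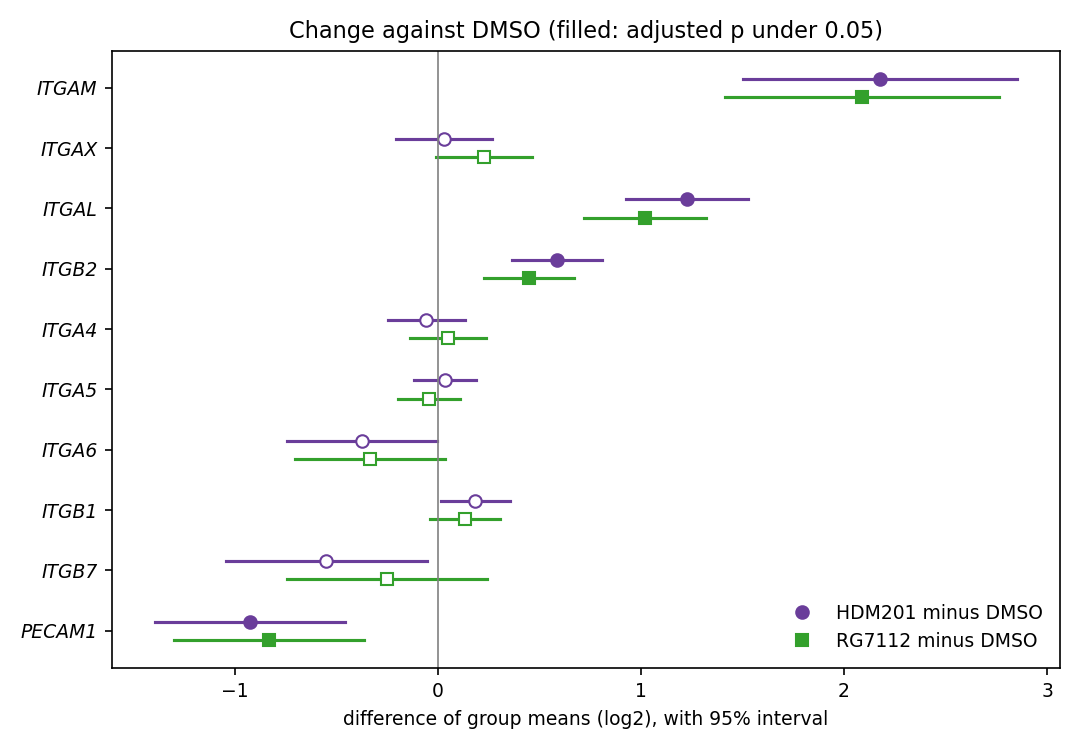
Difference in log2 signal from DMSO for the 10 genes, with HDM201 above RG7112 for each gene. Points are limma estimates over 6 arrays against 6 and bars are 95% intervals. Filled points passed at an adjusted p under 0.05. The filled points are those of ITGAM, ITGAL, ITGB2 and PECAM1 with each compound.

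ITGB1, the beta1 subunit, had 10.65 to 10.83 with a median of 10.72 in HDM201 arrays and 10.35 to 10.84 with a median of 10.73 in RG7112 arrays, against 10.43 to 10.63 with a median of 10.56 in DMSO arrays. Although every HDM201 array lay above every DMSO array, the difference of 0.18 did not pass (95% interval 0.01 to 0.36, limma adjusted p 0.136). With RG7112 the difference was 0.13 (-0.04 to 0.31, limma adjusted p 0.287).

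ITGA4, the alpha4 subunit that pairs with beta1 or beta7, averaged 8.87 ± 0.18 with HDM201, 8.98 ± 0.15 with RG7112 and 8.93 ± 0.08 with DMSO (SD, n = 6 each). The intervals of its difference from DMSO were -0.24 to 0.13 with HDM201 and -0.14 to 0.24 with RG7112. ITGA5, the alpha subunit of the fibronectin receptor, averaged 10.70 ± 0.11, 10.63 ± 0.08 and 10.67 ± 0.11 for HDM201, RG7112 and DMSO (SD, n = 6 each). Its intervals were -0.12 to 0.19 with HDM201 and -0.20 to 0.11 with RG7112. For ITGA4 and ITGA5 these bounds leave room for changes of at most 0.24 on the log2 scale in either direction.

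ITGA6, a laminin receptor subunit, had low signals, below the array medians. Its log2 signal was 5.15 to 5.87 with a median of 5.48 in HDM201 arrays and 4.79 to 6.04 with a median of 5.54 in RG7112 arrays, against 5.51 to 6.22 with a median of 5.76 in DMSO arrays. The groups overlapped, with 4 of 6 HDM201 arrays and 3 of 6 RG7112 arrays below the lowest DMSO array. The difference was -0.37 with HDM201 and -0.34 with RG7112 and did not pass (limma adjusted p 0.166 and 0.208).

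ITGB7, the beta7 subunit, had 5.63 to 6.99 with a median of 6.27 in HDM201 arrays and 5.89 to 7.2 with a median of 6.69 in RG7112 arrays, against 6.36 to 7.25 with a median of 6.87 in DMSO arrays. The groups overlapped. The difference from DMSO was -0.55 with HDM201 (95% interval -1.04 to -0.06, limma adjusted p 0.121) and -0.25 with RG7112 (-0.74 to 0.24, limma adjusted p 0.513). In each group the mean of ITGB7 was lower in replicates 1 to 3 than in replicates 4 to 6, at 5.99 and 6.62 with HDM201, 6.16 and 7.05 with RG7112 and 6.64 and 7.08 with DMSO. With the replicate set as a term in the model the same difference of -0.55 with HDM201 passed (limma adjusted p 0.0149), and without HDM201 replicate 5 it was -0.69 and passed (0.0458). The difference was -0.65 with HDM201 and -0.48 with RG7112 within replicates 1 to 3, and within replicates 4 to 6 it was -0.45 and -0.02, none of which passed. Without RG7112 replicate 3 the difference with RG7112 was -0.11.

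PECAM1, on chromosome 17, was the member that fell. Its log2 signal was 7.04, 6.71, 6.79, 7.06, 7.61 and 7.48 in HDM201 replicates 1 to 6 and 7.37, 7.28, 6.16, 7.52, 7.69 and 7.22 in RG7112 replicates 1 to 6, against 8.68, 8.25, 8.13, 7.53, 7.79 and 7.85 in DMSO replicates 1 to 6. With each compound 5 of 6 treated arrays lay below the lowest DMSO array, and the 3 highest DMSO arrays were replicates 1 to 3. The means were 7.11 ± 0.36 with HDM201, 7.21 ± 0.54 with RG7112 and 8.04 ± 0.40 with DMSO (SD, n = 6 each). PECAM1 fell by 0.92 ± 0.23 (SE) with HDM201, a 1.90-fold lower signal (limma adjusted p 0.00509). It fell by 0.83 ± 0.23 with RG7112, a 1.78-fold lower signal (limma adjusted p 0.0129). Without RG7112 replicate 3, the lowest of all 18 arrays, the difference was -0.62 with RG7112 and still passed (limma adjusted p 0.0223).

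The fall of PECAM1 passed within replicates 1 to 3 and not within replicates 4 to 6. In replicates 1 to 3 the difference from DMSO was -1.51 with HDM201 and -1.41 with RG7112 (limma adjusted p 0.00474 and 0.00911), whereas within replicates 4 to 6 it was -0.34 and -0.25 and did not pass (0.218 and 0.399). The DMSO arrays averaged 8.35 in replicates 1 to 3 and 7.72 in replicates 4 to 6, a difference of 0.63 (limma adjusted p 0.634), and the treated means were 6.84 and 7.38 with HDM201 and 6.94 and 7.48 with RG7112. The difference in the change between sets was -1.16 with each compound and did not pass (limma adjusted p 0.382 with HDM201 and 0.577 with RG7112). Over all probes 0.303% differed between the DMSO arrays of the 2 sets. CDKN1A and MDM2 were also higher in DMSO replicates 1 to 3 than in 4 to 6, by 1.65 and 0.89, and their part in the result was not tested.

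**Figure D3:**
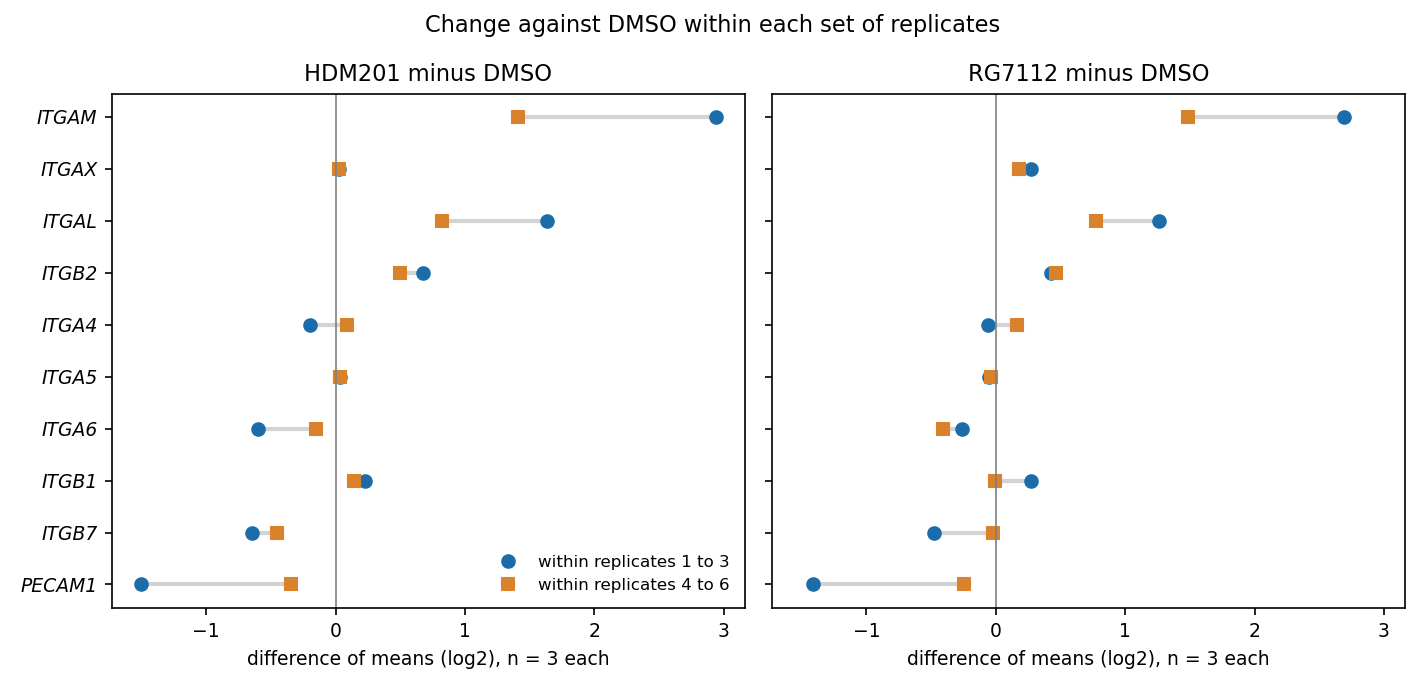
Difference in log2 signal from DMSO within replicates 1 to 3 and within replicates 4 to 6, for each of the 10 genes, with HDM201 in the left panel and RG7112 in the right. Circles (replicates 1 to 3) and squares (replicates 4 to 6) are differences of the means of 3 arrays against 3, and grey lines join the 2 sets of a gene. ITGAM lies at 2.94 and 1.41 with HDM201 in the 2 sets, and PECAM1 at -1.51 and -0.34.

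HDM201 and RG7112 were compared directly at the doses given, 500 nM and 2 µM, so the comparison is one of treatments and not of compounds at a matched dose. Of the 10 genes 0 differed between the treatments, and 0.0% of all 21448 probes passed by limma, beside 749 probes, or 3.49%, at an unadjusted p under 0.05. Among the 10 genes 0 had an unadjusted p under 0.05. For ITGAM the difference of HDM201 minus RG7112 was 0.09 with a 95% interval of -0.59 to 0.76, and for PECAM1 -0.09 with an interval of -0.56 to 0.37. ITGAL differed by 0.21 (-0.09 to 0.51), ITGB2 by 0.14 (-0.08 to 0.36) and ITGAX by -0.20 (-0.43 to 0.04). ITGB7 differed by -0.30 (-0.79 to 0.19) and ITGA6 by -0.04 (-0.41 to 0.33). The limma adjusted p-values of the 10 genes were 0.991 or 0.992. The interval of ITGAM runs from 0.666-fold to 1.70-fold and that of ITGB7 from 0.577-fold to 1.14-fold, so that the data leave room for differences of these sizes between the treatments. When HDM201 replicate 6 was left out, 1 probe of the array passed, and it was not one of the 10 genes.

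The 7 lists around the integrins held 94 measured genes, of which 23 (24.5%) changed with HDM201 and 17 (18.1%) with RG7112, beside 18.8% and 17.5% of all probes. The genes named from them by the rule on size, which leaves out FERMT3, ICAM1, VCAM1 and MADCAM1, include 21 of these calls with HDM201 and 15 with RG7112. Of these, 9 of the 21 and 8 of the 15 did not pass within replicates 1 to 3, and 10 and 5 did not within replicates 4 to 6. In both sets 8 and 5 passed, with each set having 3 arrays a group. The counts of each list below stand beside 9.16% of all probes that rose and 9.64% that fell with HDM201. With RG7112 these shares were 7.9% and 9.61%.

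The remaining integrin subunits were measured with 16 genes, of which 2 rose and 1 fell with HDM201 and 1 rose and 1 fell with RG7112. ITGAV, the alphaV subunit of vitronectin receptors, averaged 6.92 ± 0.39 with HDM201, 6.77 ± 0.45 with RG7112 and 6.20 ± 0.15 with DMSO (SD, n = 6 each). It rose by 0.72 with HDM201 (limma adjusted p 0.00725) and by 0.57 with RG7112 (0.0362), and the call with RG7112 was lost in 7 of 18 fits that each left out 1 array, among them RG7112 replicate 3 (0.44, adjusted p 0.0873). Of the 18 fits, 6 left out an array of the group not compared, which keeps the difference and alters only the shared spread. All 7 losses of ITGAV came from leaving out a DMSO or RG7112 array. ITGA3, a laminin receptor subunit with low signals, rose by 0.66 with HDM201 (limma adjusted p 0.00725, with 1.06 within replicates 1 to 3 and 0.27, which did not pass, within replicates 4 to 6) and differed by 0.45 with RG7112, which did not pass (limma adjusted p 0.0743). ITGAE, the alphaE subunit that pairs with beta7 and binds E-cadherin, fell by 0.44 with HDM201 and by 0.39 with RG7112 (limma adjusted p 0.00832 and 0.0205), and the call with RG7112 was lost without DMSO replicate 4 (-0.36, adjusted p 0.0537). Within replicates 1 to 3 and within replicates 4 to 6 ITGAE passed with neither compound. The limma adjusted p-values were 0.0864 and 0.109 with HDM201 and 0.0594 and 0.393 with RG7112. ITGA9 had the largest difference of those that did not pass in either comparison, -0.41 with HDM201 and -0.03 with RG7112. The median change of the list was 0.02 with HDM201 and 0.03 with RG7112, equal to 2 decimals to the medians over all probes.

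Integrins signal through Src family kinases, adaptors with activation motifs and exchange factors. Of 18 such signalling genes measured, 5 rose and 1 fell with HDM201 and 3 rose and 1 fell with RG7112. FGR, a Src family kinase of myeloid cells, had a log2 signal of 7.94 to 9.52 in HDM201 arrays and 8.17 to 9.29 in RG7112 arrays, against 6.46 to 7.46 in DMSO arrays, with no overlap. FGR rose 3.62-fold with HDM201 and 3.25-fold with RG7112 (limma adjusted p 2.09e-05 and 8.32e-05). TYROBP, the adaptor DAP12 that carries an activation motif, rose 1.90-fold with HDM201 and 1.59-fold with RG7112. Within replicates 1 to 3 TYROBP differed by 0.60 with RG7112 on the log2 scale and did not pass (limma adjusted p 0.229). SRC rose 1.46-fold with HDM201 and 1.37-fold with RG7112. VAV3, a member of the Vav family, fell by 0.75 with HDM201 and by 0.69 with RG7112 on the log2 scale. Within replicates 4 to 6 VAV3 differed by -0.57 and -0.40, and neither passed (limma adjusted p 0.068 and 0.219). BCAR1, the scaffold p130Cas, differed by -0.48 with HDM201 and by -0.60 with RG7112, neither of which passed (limma adjusted p 0.321 and 0.18). With the replicate set as a term in the model both differences of BCAR1 passed (limma adjusted p 0.0384 and 0.0105), as they did within replicates 4 to 6 (-0.69 and -0.65), and without RG7112 replicate 3 the difference with RG7112 was -0.36 and did not pass.

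Integrins are switched to their binding state from inside the cell by talin, kindlins and the GTPase Rap1. Of 18 genes of this step measured, 3 rose and 1 fell with HDM201 and 2 rose and 1 fell with RG7112. APBB1IP, also called RIAM, which links Rap1 to talin, rose 1.63-fold with HDM201 and differed by 0.47 on the log2 scale with RG7112, which did not pass (limma adjusted p 0.077). Without RG7112 replicate 3 the difference of APBB1IP with RG7112 was 0.66 and passed (limma adjusted p 0.00104). With HDM201 APBB1IP differed by 0.94 within replicates 1 to 3 and by 0.46 within replicates 4 to 6. Neither passed (limma adjusted p 0.0712 and 0.0588). RAPGEF1, an exchange factor for Rap1, rose by 0.33 with HDM201 and by 0.28 with RG7112 (limma adjusted p 0.0195 with RG7112, and 0.0534 without RG7112 replicate 1). With RG7112 RAPGEF1 passed neither within replicates 1 to 3 nor within replicates 4 to 6 (limma adjusted p 0.155 and 0.169). With HDM201 it did not pass within replicates 1 to 3 (0.198) and passed within replicates 4 to 6 (0.0288). FYB1, the adaptor ADAP, rose by 0.63 with HDM201 (limma adjusted p 0.0276), a call lost in 6 of 18 fits that each left out 1 array, and differed by 0.51 with RG7112, which did not pass. FYB1 differed by 0.37 and 0.09 within replicates 1 to 3, neither of which passed, and within replicates 4 to 6 by 0.89 and 0.93, both of which passed. ITGB1BP1, also called ICAP-1, which binds the tail of beta1 and holds it inactive, fell 1.74-fold with HDM201 and 1.52-fold with RG7112 (limma adjusted p 0.000247 and 0.0046). FERMT3, the kindlin of blood cells, rose by 0.25 with RG7112 (limma adjusted p 0.0175). With HDM201 FERMT3 differed by 0.19 and did not pass (limma adjusted p 0.0759). SKAP2 differed by 0.32 with HDM201 and by 0.24 with RG7112 and did not pass in either.

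**Figure D4:**
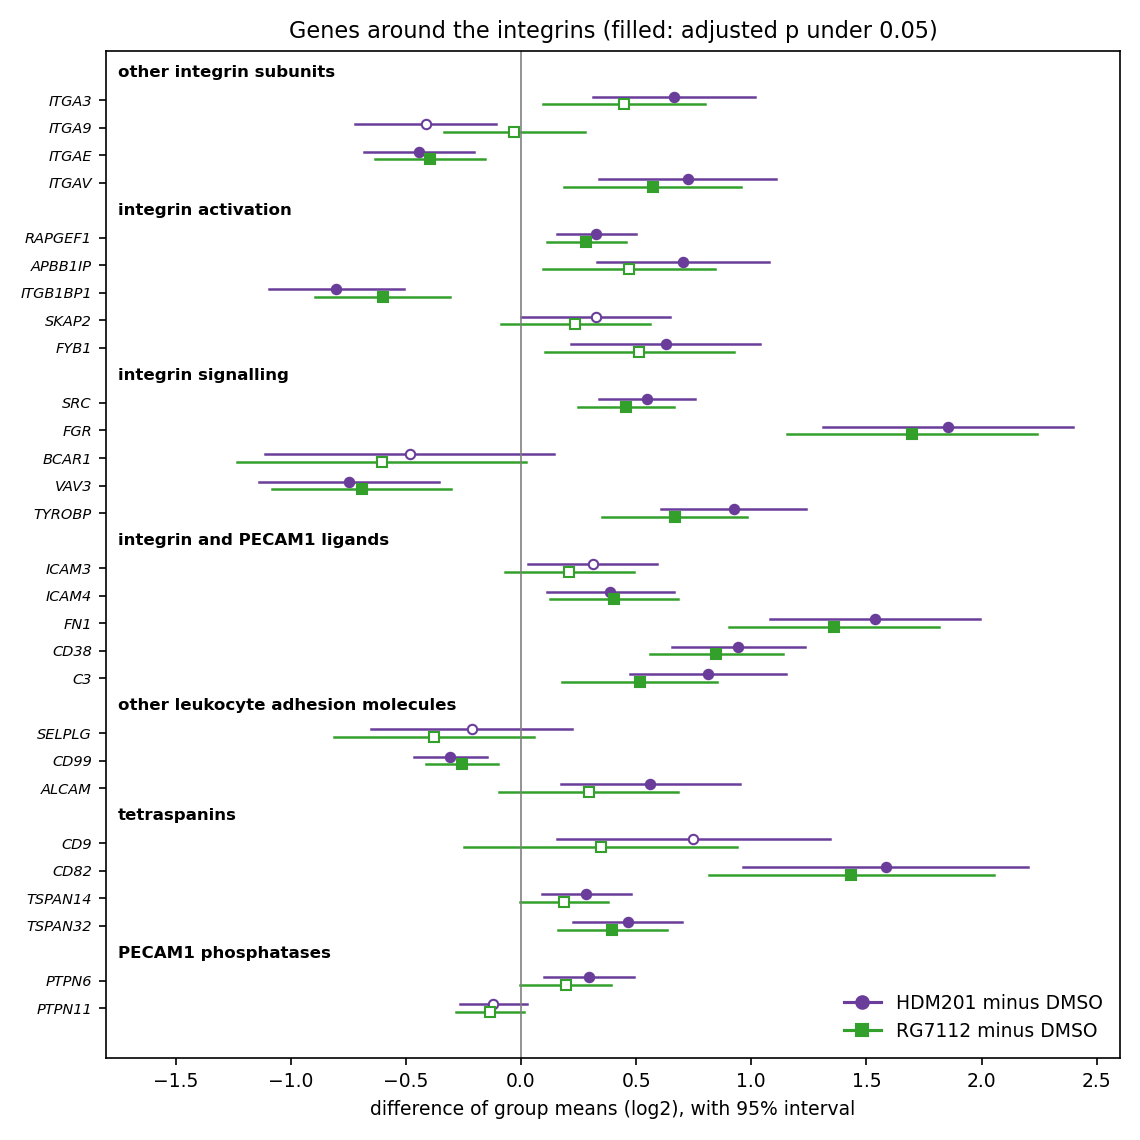
Difference in log2 signal from DMSO for the genes named from the lists of other subunits, activation, signalling, ligands, adhesion molecules, tetraspanins and phosphatases, with HDM201 above RG7112 for each gene. Points are limma estimates over 6 arrays against 6 and bars are 95% intervals, and filled points passed at an adjusted p under 0.05. FGR, FN1 and CD82 lie furthest to the right, and ITGB1BP1 and VAV3 lie left of 0.

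Of 15 ligand genes measured, 4 rose with HDM201 and 5 with RG7112, and 0 fell with either. Of all probes 9.16% and 7.9% rose, and 9.64% and 9.61% fell. FN1, which encodes fibronectin, had a log2 signal of 6.98 to 8.42 in HDM201 arrays and 7.07 to 8.21 in RG7112 arrays, against 5.64 to 6.40 in DMSO arrays, with no overlap. FN1 rose 2.90-fold with HDM201 and 2.56-fold with RG7112 (limma adjusted p 0.000143 with RG7112). CD38, the ligand of PECAM1 on other leukocytes, rose 1.92-fold with HDM201 and 1.80-fold with RG7112 (limma adjusted p 0.000159 with RG7112). C3, whose cleaved fragment binds Mac-1, rose by 0.81 with HDM201 and by 0.52 with RG7112 (limma adjusted p 0.0316 with RG7112). The call of C3 with RG7112 was lost in 5 of 18 fits that each left out 1 array, among them RG7112 replicate 3 (0.40, limma adjusted p 0.0743). ICAM4 rose by 0.39 with HDM201 and by 0.40 with RG7112 (limma adjusted p 0.0455 and 0.04), and these calls were lost in 10 and 6 of 18 fits that each left out 1 array. ICAM4 rose by 0.71 and 0.69 within replicates 1 to 3 (limma adjusted p 0.0213 and 0.0297), and within replicates 4 to 6 it differed by 0.06 and 0.11, which did not pass (0.764 and 0.549). ICAM1 and VCAM1, the ligands of LFA-1 and of alpha4 beta1, differed by 0.11 and -0.01 with HDM201 and by 0.12 and -0.10 with RG7112 and did not pass, and ICAM3 did not pass either (0.31 with HDM201 and 0.21 with RG7112). MADCAM1, the ligand of alpha4 beta7, rose by 0.40 with RG7112 (limma adjusted p 0.0329). With HDM201 MADCAM1 differed by 0.20 and did not pass (limma adjusted p 0.31).

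Of 13 other leukocyte adhesion molecules measured, 1 rose and 1 fell with HDM201 and 0 rose and 1 fell with RG7112. CD99, which works with PECAM1 when leukocytes cross the endothelium, fell by 0.31 with HDM201 and by 0.26 with RG7112 (limma adjusted p 0.00556 and 0.0219), and the call with RG7112 was lost without DMSO replicate 1 or 4 (adjusted p 0.053 and 0.0503). Within replicates 1 to 3 and within replicates 4 to 6 CD99 passed with neither compound. The limma adjusted p-values were 0.0695 and 0.198 with HDM201 and 0.177 and 0.23 with RG7112. ALCAM rose by 0.56 with HDM201 (limma adjusted p 0.039, lost in 7 of 18 fits that each left out 1 array) and differed by 0.29 with RG7112, which did not pass. SELPLG, the ligand of P-selectin, differed by -0.21 with HDM201 and by -0.38 with RG7112 and did not pass, and without RG7112 replicate 3 the difference with RG7112 was -0.11. Of 3 phosphatases that bind PECAM1, PTPN6 (SHP-1) rose by 0.29 with HDM201 (limma adjusted p 0.0308, lost in 6 of 18 such fits) and PTPN11 (SHP-2) differed by -0.12 and did not pass, while with RG7112 0 of 3 passed.

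Tetraspanins organise integrins in the membrane, and of 11 measured 3 rose with HDM201 and 2 with RG7112. CD82, which restrains cell movement, had a log2 signal of 8.96 to 10.72 in HDM201 arrays and 8.98 to 10.44 in RG7112 arrays, against 8.05 to 8.40 in DMSO arrays, with no overlap. It rose 3.00-fold with HDM201 and 2.70-fold with RG7112 (limma adjusted p 0.0005 and 0.00163). TSPAN32 rose by 0.46 with HDM201 and by 0.40 with RG7112. Within replicates 1 to 3 TSPAN32 differed by 0.27 and 0.20 and did not pass (limma adjusted p 0.22 and 0.36). Within replicates 4 to 6 it rose by 0.65 and 0.59. TSPAN14 rose by 0.28 with HDM201 (limma adjusted p 0.0345, lost in 7 of 18 fits that each left out 1 array). CD9 differed by 0.75 with HDM201 and by 0.35 with RG7112 and did not pass in either.

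ITGAM marks myeloid cells and PECAM1 is also an endothelial gene, so markers of cell types were read beside them. All 18 arrays came from 1 cell line, so these lists describe its transcripts and are no test of a mixture of cell types. Of 14 further myeloid surface markers, 2 rose with HDM201 and 1 with RG7112, and 0 fell. Of all probes 9.16% rose with HDM201 and 7.9% with RG7112, and 9.64% and 9.61% fell. The median change of the 14 was 0.06 with HDM201 and -0.01 with RG7112, beside 0.02 and 0.03 over all probes. CD36, a scavenger receptor of monocytes, rose 3.12-fold with HDM201 and 2.99-fold with RG7112. CSF3R, the receptor of the growth factor G-CSF, rose 1.56-fold with HDM201. With RG7112 CSF3R differed by 0.49 on the log2 scale and did not pass (limma adjusted p 0.0587). CD14 differed by 0.38 with HDM201 and by 0.24 with RG7112 and did not pass (limma adjusted p 0.158 and 0.388). The other markers passed with neither compound. With RG7112 the differences were negative for ANPEP (-0.22), FCGR2A (-0.19), MRC1 (-0.17), CD4 and CSF1R (-0.08 each), FCGR1A (-0.05), CD68 (-0.03) and FCGR3A (-0.0003). They were positive for CD163 (0.35), LYZ (0.225) and KIT (0.02). With HDM201 MRC1 (-0.21), FCGR1A (-0.15), FCGR3A (-0.11) and CSF1R (-0.07) had negative differences. Of 7 endothelial markers 0 passed with either compound, and their mean log2 signal was 5.25 to 5.35 with HDM201, 5.13 to 5.57 with RG7112 and 5.13 to 5.29 with DMSO, below the array medians. The megakaryocyte and platelet, NK cell and erythroid lists had 0 changed genes of 5, 5 and 4. Of 7 T cell markers CD247 rose with both compounds, of 4 B cell markers 1 rose with RG7112, and of 7 fibroblast and epithelial markers 1 rose with RG7112 and 1 fell with HDM201. The mean log2 signal of the T cell list stayed between 4.59 and 4.96 over the 18 arrays.

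The genes whose pattern over the 18 arrays was most like that of a member were found by the root mean square difference after each gene was centred on its own DMSO mean. For ITGAM these were JUN (0.337 on the log2 scale), PLTP (0.358) and IER3 (0.363). JUN encodes an AP-1 subunit, PLTP a phospholipid transfer protein and IER3 an early response protein. For ITGAL they were TNFRSF10D (0.242), a decoy receptor of TRAIL, KSR1 (0.245), a scaffold of the MAP kinase cascade, and RALGDS (0.258), an exchange factor for Ral. For ITGB2 they were SLC67A1 (0.106), SGSH (0.111), a lysosomal sulfatase, and HIPK2 (0.127), a nuclear kinase. For PECAM1 they were CYSLTR1 (0.225), a leukotriene receptor, PRKAR2B (0.257), a regulatory subunit of protein kinase A, and DLX1 (0.266), a homeobox factor. RG7112 replicate 3 was the lowest array of its group for PECAM1, CYSLTR1, PRKAR2B and DLX1, and for ITGB2 and HIPK2. That array entered the likeness, which was not computed without it. PRKAR2B fell by 0.81 with HDM201 and by 0.87 with RG7112, and CYSLTR1 by 0.75 and 0.70, beside 0.92 and 0.83 for PECAM1.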

How the data were processed

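Total RNA of treated OCI-AML3 cells, prepared with a miRNeasy kit and labelled with biotin by a WT Pico kit, was hybridised to 18 arrays, per the labels. RMA, run through the oligo package per the submitters' processing notes, gave the deposited log2 values; it corrects background, normalizes quantiles between arrays and summarises probe sets. Neither versions nor a build are stated in the labels or headers. All 18 columns were used.

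Of 21448 probes 17709 had exactly 1 gene symbol in the platform annotation, 0 had several, and the rest have no name here. Group means over all 18 arrays entered a limma fit (version 3.58.1, under R 4.3.3) with moderated variances, and Benjamini-Hochberg adjustment ran over the whole array, with a threshold of 0.05. "Rose", "fell" and "changed" are used of genes past it. A second model had a mean per group and replicate set. Intervals cover 95%. The scripts were tested on simulated data. The number of arrays limits the precision.

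Deviations of same-numbered HDM201 and RG7112 arrays correlated by 0.117 to 0.44 in 6 pairs, for which the labels give no reason. The values of HDM201 minus RG7112 come from the fit without pairing, and the fit with the replicate number as a block also called 0 of the 10 genes. The lists around the integrins hold 94 measured genes. From each, up to 4 changed genes with the largest difference and the largest that passed in neither comparison are named. FERMT3, ICAM1, VCAM1, MADCAM1 and the marker genes were added after their values were seen. The members and lists were chosen with earlier results of these data known. Promoters come from RefSeq (GRCh38.p14) and were matched by symbol for 6 of the 10 genes.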

Additional observations from a re-analysis of the deposited data

Results flagged for a closer look

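Among 156 groups of 6 arrays, which are 52 genes in 3 treatments, 11 held an array whose gap to the nearest other array, over the range of the group, exceeded Dixon's 95% critical value for 6 values. Chance marks about 1 in 20 groups. In 9 of the 11 the array was RG7112 replicate 3, and there it was the lowest of its group. Among the members these were ITGB2, with 10.9964 against 11.41 to 11.62 in the other 5 RG7112 arrays, and PECAM1, with 6.1573 against 7.22 to 7.69. The others were TYROBP at 10.5837, SELPLG at 7.8805, PTPN11 at 9.8484, CYSLTR1 at 8.6327, DLX1 at 8.0524, HIPK2 at 11.0273 and PRKAR2B at 7.8675, of which the last 4 had been chosen for a likeness to ITGB2 or PECAM1. ITGA9 was lowest in HDM201 replicate 1, at 4.2108 against 4.85 to 5.19, and RAPGEF1 highest in HDM201 replicate 3, at 7.9459 against 7.75 to 7.82.

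The change against DMSO differed between replicates 1 to 3 and replicates 4 to 6 for CD82 and PLTP, by limma's test of the difference itself. CD82 rose more in replicates 1 to 3 with HDM201, by 1.2316 on the log2 scale (adjusted p 0.0264). PLTP, which was chosen for its likeness to ITGAM, did so by 1.7236 with HDM201 (adjusted p 0.00134) and by 1.3666 with RG7112 (adjusted p 0.0117). For ITGAM the same difference was 1.53 with HDM201 (adjusted p 0.065).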

How the results depend on the processing

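ITGAM, ITGAL, ITGB2 and PECAM1 kept their direction in all 28 alternatives against DMSO. ITGAM and ITGAL also kept their calls, ITGB2 lost its call with RG7112 within replicates 1 to 3 (adjusted p 0.178), and PECAM1 lost its calls within replicates 4 to 6 (0.218 with HDM201, 0.399 with RG7112). Without 1 array, 4 to 5 members changed with HDM201 and 4 with RG7112. The replicate number as a block left 5 members changed with HDM201, with ITGB7 passing at -0.55 (adjusted p 0.00525), and 4 with RG7112; the block changed no other member's call. Among the listed genes it added BCAR1 with HDM201 and RG7112 (adjusted p 0.0293 and 0.00827), ITGA9 and CD9 with HDM201 (0.0102 and 0.00671), and ITGA3, FYB1 and APBB1IP with RG7112 (0.0426, 0.049 and 0.0218). Same-numbered treated and DMSO arrays correlated by 0.0826 to 0.299 with HDM201 and 0.0168 to 0.365 with RG7112, so not every pair exceeded 0.1 and the numbers were not used to pair arrays with DMSO; 4 of 6 in each comparison correlated best with their own number, as for HDM201 with RG7112.

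The lists around the integrins held 23 changed genes of 94 (24.5%) with HDM201 and 17 (18.1%) with RG7112, beside 18.8% and 17.5% of all probes. There were 30 and 24 with the block and 26 and 21 with the replicate set as a term. Within replicates 1 to 3 there were 12 and 7, and within replicates 4 to 6 there were 13 and 14, with fewer arrays in each fit. The set difference with HDM201 was called for 0 members, and for 1, ITGAM, with a trended and robust prior or with the array median subtracted (1 in each). Alternatives for the lists and their genes were added after the data were seen.

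Small differences that did not pass changed sign. With the array median subtracted, ITGAX was -0.0070 and ITGA5 -0.0033 with HDM201, ITGA4 was -0.0009 with RG7112, and the set differences of ITGA5 with HDM201 and ITGA4 in DMSO were -0.0186 and 0.0074. ITGA5 with RG7112 was 0.0272 after a further quantile normalization. Within replicates 1 to 3, ITGA4 with RG7112 was -0.0589 and ITGB1 for HDM201 minus RG7112 -0.0486. Within replicates 4 to 6, ITGB1 with RG7112 was -0.0046, ITGA4 with HDM201 0.0858, and ITGAM and ITGA6 for HDM201 minus RG7112 -0.0706 and 0.2603. ITGA6 was 0.0176 with array weights. ITGA9 with RG7112 was 0.0118 with array weights and 0.0250 within replicates 4 to 6. Leaving out 1 array gave -0.0352 to 0.1119 for ITGAX and -0.0010 to 0.0636 for ITGA5 with HDM201, -0.0917 to 0.0466 for ITGA9 with RG7112, and, for HDM201 minus RG7112, -0.1143 to 0.2935 for ITGAM, -0.1764 to 0.0725 for ITGA6, -0.0150 to 0.0823 for ITGB1 and -0.3041 to 0.0018 for PECAM1. The cause was not tested. Using the mean of several probes per gene was not run, since each member has 1 probe, and ITGA6 was not tested among the probes above the median signal.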
